A study of Mus musculus with 8 samples.

Results

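The NADPH oxidases are membrane enzymes whose product is superoxide or hydrogen peroxide, and 9 genes that encode their subunits were followed here in mouse lung. They were taken from a list of names and read from the probe set of highest mean among those that carry exactly 1 gene symbol, out of 19937 genes named in this way. For each of the 9 only 1 such probe set was on the array. Of these genes 5 belong to the phagocyte oxidase (Cybb, Cyba, Ncf1, Ncf4 and Rac2) and 4 to oxidases of other cells (Nox4, Duox1, Duox2 and Noxo1).

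Whole lung RNA was hybridised to 8 arrays in 4 groups of 2: mepenzolate at 25 h, vehicle at 25 h, mepenzolate at 7 h and vehicle at 7 h. Mepenzolate, a blocker of muscarinic acetylcholine receptors, was placed in the trachea in phosphate-buffered saline, and the labels describe chloral hydrate anaesthesia (500 mg/kg) for that dosing. The same wording stands in the labels of all 8 samples, vehicle included, with no separate account of what the vehicle groups received. Strain, sex, age and the dose of mepenzolate are not given in the sources used here, and no inducer of lung disease is named for any group. The study asked how mepenzolate lowers inflammation and oxidative stress in the lung. Whether the paired arrays of a group stem from separate mice is not stated by the labels, so p-values reflect the spread between these samples alone, and that spread may be technical.

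In phagocytes the oxidase consists of a membrane pair, Cybb (gp91phox, the catalytic subunit) and Cyba (p22phox, its partner), and of cytosolic factors that join it on activation. Ncf1 (p47phox) is the organiser that bridges to Cyba, Ncf4 (p40phox) binds phosphoinositide lipids, and Rac2 is the small GTPase of the complex in blood cells. In the lung this oxidase is known from neutrophils, monocytes, macrophages, dendritic cells and B cells. Nox4 is a constitutively active oxidase known from fibroblasts, smooth muscle and endothelium as well as epithelium, so "epithelial" is too narrow a name for it. Duox1 and Duox2 are the dual oxidases of airway epithelium, which feed hydrogen peroxide to lactoperoxidase, and Noxo1 is the organiser that stands in for Ncf1 in the Nox1 complex.

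The start regions of 3 members are shown, those of Nox4, which had the largest treatment differences, and of Cybb and Ncf1, a membrane and a cytosolic subunit of the phagocyte oxidase. No region is printed for Rac2. Each is 300 bases of RefSeq sequence in build GRCm38.p6, from 250 bases before the annotated start site to 50 from it onward, read 5′ to 3′ on the gene's strand. Each region belongs to 1 annotated start: the annotated spans of Cybb and Nox4 reach further upstream than the start used here. Matches on either strand to GAGGAA (the core of sites for Spi1, the PU.1 factor of myeloid and B cells), CCAAT or TATAAA would be in capitals. The regions are chrX:9469275-9469574 on the minus strand for Cybb, chr5:134229576-134229875 on the minus strand for Ncf1 and chr7:87246399-87246698 on the plus strand for Nox4.
Cybb: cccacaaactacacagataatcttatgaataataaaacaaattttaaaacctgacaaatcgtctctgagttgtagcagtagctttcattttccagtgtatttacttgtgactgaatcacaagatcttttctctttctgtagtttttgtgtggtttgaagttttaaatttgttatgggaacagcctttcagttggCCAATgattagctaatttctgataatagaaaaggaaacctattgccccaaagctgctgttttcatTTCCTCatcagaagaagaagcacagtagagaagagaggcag
Ncf1: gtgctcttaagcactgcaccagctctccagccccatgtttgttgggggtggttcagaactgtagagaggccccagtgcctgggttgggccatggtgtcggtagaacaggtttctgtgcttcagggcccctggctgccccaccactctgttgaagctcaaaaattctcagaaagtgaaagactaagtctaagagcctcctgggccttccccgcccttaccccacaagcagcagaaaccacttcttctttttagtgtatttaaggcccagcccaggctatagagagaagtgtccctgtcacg
Nox4: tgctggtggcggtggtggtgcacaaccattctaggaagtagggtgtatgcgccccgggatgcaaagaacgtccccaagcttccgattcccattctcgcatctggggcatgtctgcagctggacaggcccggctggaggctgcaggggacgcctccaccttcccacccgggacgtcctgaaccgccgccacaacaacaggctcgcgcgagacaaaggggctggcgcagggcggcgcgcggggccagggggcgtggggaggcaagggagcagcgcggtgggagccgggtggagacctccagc

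Among the 7 members with such a region in the table, Cybb was the 1 with GAGGAA, on the reverse strand at positions 9 to 14 from the start site, where the start site is position 0. CCAAT was found in 2 regions, that of Cybb at positions -56 to -52 and that of Duox2, and TATAAA in 0. The Ncf1 and Nox4 regions held none of these letters. Over 32851 regions of the same length, GAGGAA was in 28.3%, CCAAT in 37.4% and TATAAA in 13.6%, so a match is a common event and is given as a description.

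Expression values are log2 levels on the RMA scale (robust multi-array average), where 1 unit is a doubling, and differences are log2 differences with moderated standard errors. Lung markers were high: the surfactant gene Sftpc averaged 13.52, the alveolar type 1 gene Ager 12.42 and the club cell gene Scgb1a1 13.30 over the 8 arrays. Array medians ran from 6.70 to 6.77. Replicates of a group correlated at r = 0.988 to 0.993 over probes, and arrays of different groups at 0.988 to 0.993 as well. Mepenzolate 7 h replicate 2 stood apart by its cell markers. It had the mean of 4 liver markers 1.05 above the mean of the 8 arrays, against -0.25 to -0.089 on the others. Its club and secretory markers were at -0.68 and its ciliated markers at -0.48. It also had the lowest Cybb value. Vehicle 7 h replicate 1 had the lowest Nox4 and Duox1 values.

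Of the 9 members 8 lay above the level at which genes were tested (a mean of at least 5.93, the 25th percentile of all named genes), and Duox2 lay below it at 5.82. No member passed an adjusted p of 0.05 in limma (Benjamini-Hochberg adjustment over 14953 genes) in any of 7 comparisons. With 2 arrays against 2 an exact permutation test cannot fall under 0.333, and with 4 against 4 it cannot fall under 0.0286. The text therefore gives every array and the interval of each difference. In whole tissue, fewer cells of a type and less RNA per cell cannot be told apart.

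The group means of the phagocyte subunits were all slightly lower in mepenzolate lungs than in vehicle lungs at 25 h, and none of these differences passed the test. Cybb measured 10.73 and 10.72 in mepenzolate lungs at 25 h, against 10.74 and 10.72 in vehicle lungs at 25 h. These values were close together and overlapped slightly. Its difference was -0.012 ± 0.12 (95% interval -0.28 to 0.25). Cyba measured 10.72 and 10.51 in mepenzolate lungs, against 10.75 and 10.71 in vehicle lungs, and replicate 2 of mepenzolate was the low array. Its difference of -0.12 ± 0.096 came with an adjusted p of 0.979 in limma.

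The cytosolic factors showed small gaps between the groups at 25 h. Ncf1 measured 8.22 and 8.10 in mepenzolate lungs, against 8.27 and 8.30 in vehicle lungs, so that both mepenzolate arrays were lower (difference -0.12 ± 0.081, limma adjusted p = 0.979). Ncf4 measured 7.59 and 7.59 in mepenzolate lungs, against 7.59 and 7.72 in vehicle lungs, and the gap came from replicate 2 of vehicle. Rac2 had the widest gap of the 5. It measured 9.59 and 9.60 in mepenzolate lungs at 25 h, against 9.71 and 9.82 in vehicle lungs at 25 h. Both mepenzolate arrays were lower, by -0.17 ± 0.076 in the mean (interval -0.34 to 0.0059, limma adjusted p = 0.979, unadjusted p = 0.0565).

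The median difference of the 5 phagocyte members at 25 h was -0.12, beside -0.023 over all genes tested, and 5 of 5 were below 0, as were 58.7% of all genes. That count was not stable: Cybb was at 0.016 after median centring of the arrays, and Ncf4 at 0.00072 without vehicle 25 h replicate 2. Of the 5, 2 had both mepenzolate arrays below both vehicle arrays (Ncf1 and Rac2), as had 22.4% of all genes, and 0 were above, as were 14.2%. At an adjusted p of 0.05 limma called 0 members and 0% of all genes, and at an unadjusted p of 0.05 it called 0 members and 4.01% of all genes. Without mepenzolate 25 h replicate 2 the phagocyte median was -0.063. Neutrophil markers were mostly lower at 25 h as well: 8 of 10 were below 0 with a median of -0.21, and 7 had both mepenzolate arrays lower. Averaged over the 10 genes and set against the mean of the 8 arrays, they stood at -0.054 to 0.044 in mepenzolate lungs and at 0.012 to 0.23 in vehicle lungs. Monocyte and interstitial macrophage markers were below 0 in 8 of 12 cases (median -0.047), and alveolar macrophage markers above 0 in 7 of 11 (median 0.047). The part of these cells in the oxidase values was not tested.

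**Figure D1:**
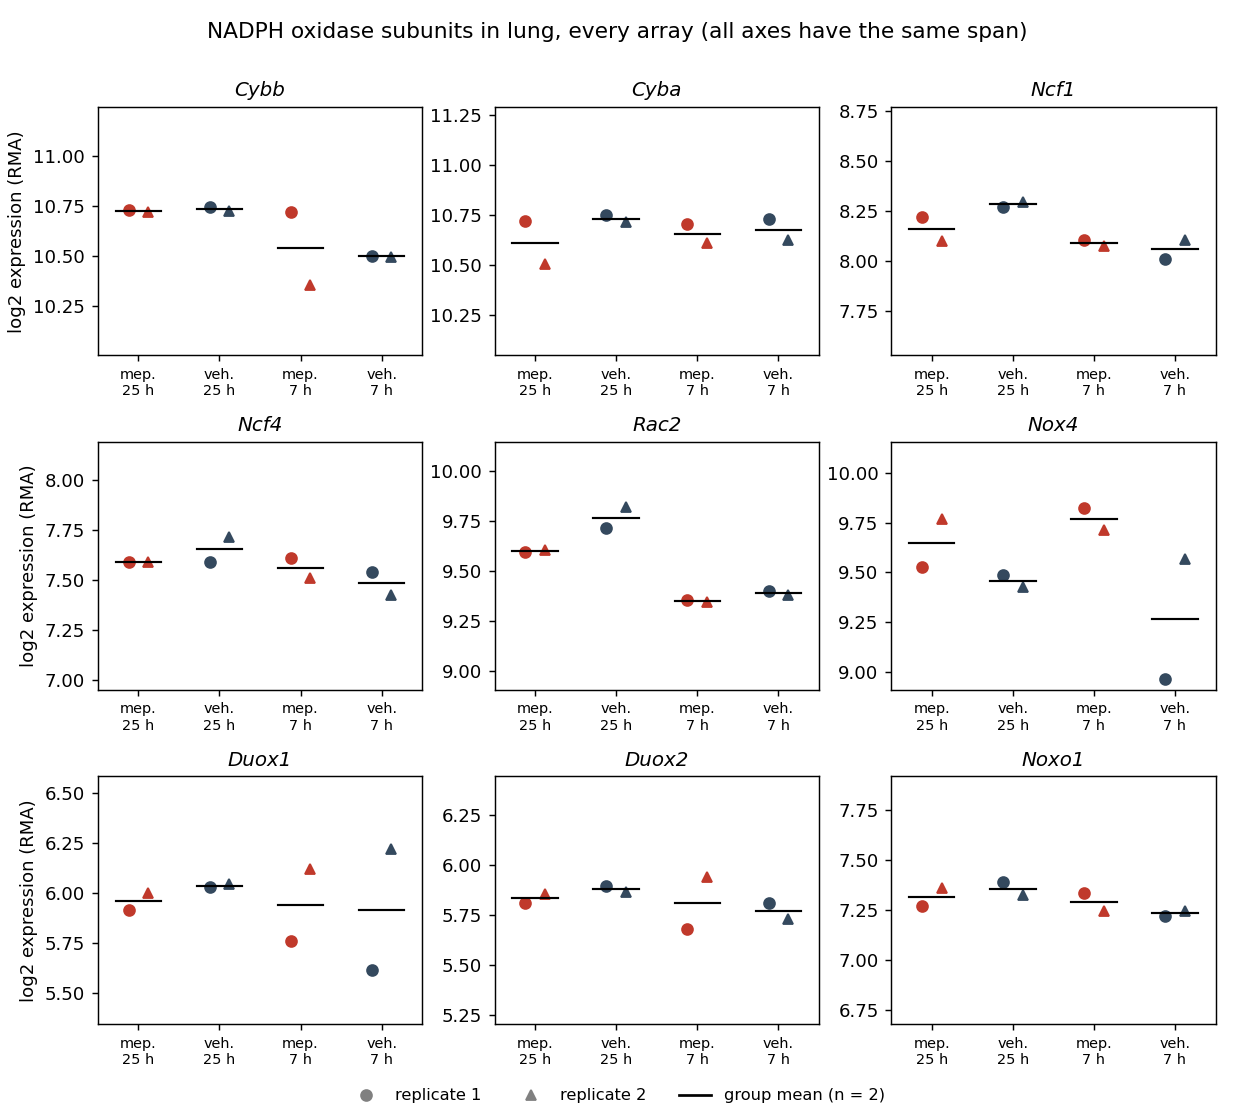
Every array's log2 expression (RMA, vertical axis) of the 9 subunits by treatment and time, with circles for replicate 1, triangles for replicate 2 and a line at each group mean of 2 arrays; the panels have different levels and the same span. All 4 Rac2 values at 25 h (9.59 to 9.82) lie above all 4 at 7 h (9.34 to 9.40), and the lowest Nox4 value is 8.97 in vehicle 7 h replicate 1.

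At 7 h the phagocyte subunits were on both sides of 0. Cybb measured 10.72 and 10.35 in mepenzolate lungs at 7 h, against 10.50 and 10.49 in vehicle lungs at 7 h. The vehicle arrays lay between the mepenzolate arrays, and the difference of 0.041 ± 0.12 became 0.22 without mepenzolate 7 h replicate 2 and -0.14 without replicate 1. Cyba measured 10.70 and 10.61 in mepenzolate lungs, against 10.73 and 10.62 in vehicle lungs. Ncf1 measured 8.11 and 8.08 in mepenzolate lungs, against 8.01 and 8.11 in vehicle lungs. These values overlapped for both genes.

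Ncf4 also overlapped between the treatments at 7 h, with 7.61 and 7.51 in mepenzolate lungs, against 7.54 and 7.42 in vehicle lungs. Rac2 measured 9.35 and 9.34 in mepenzolate lungs, against 9.40 and 9.38 in vehicle lungs. The arrays were close together within each group, and the mepenzolate pair was lower by -0.041 ± 0.076 (limma adjusted p = 1). As deposited, arrays did not overlap, with mepenzolate lower, for this 1 phagocyte member of 5, as for 15.5% of all genes at 7 h. After quantile normalization the 7 h arrays of Rac2 overlapped, at 9.30 and 9.39 in mepenzolate lungs and 9.37 and 9.38 in vehicle lungs. The phagocyte median was 0.033, beside -0.013 over all genes tested, and -0.046 without mepenzolate 7 h replicate 1. At an adjusted p of 0.05 limma called 0 members and 0% of all genes at 7 h, and at an unadjusted p of 0.05 it called 1 member, Nox4, and 2.39% of all genes.

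Nox4 yields mainly hydrogen peroxide and is known to be induced by transforming growth factor beta in fibroblasts and muscle cells. In the deposited values it was higher in mepenzolate lungs at both times in every array pair within a time. It measured 9.53 and 9.77 in mepenzolate lungs at 25 h, against 9.48 and 9.43 in vehicle lungs at 25 h. Its values at 7 h were 9.82 and 9.71 in mepenzolate lungs, against 8.97 and 9.56 in vehicle lungs. The groups did not overlap at either time, although the gap between the vehicle arrays at 7 h, 0.60, was larger than the difference of the means.

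The Nox4 difference was 0.50 ± 0.18 at 7 h (1.41-fold, interval 0.091 to 0.91, limma unadjusted p = 0.0225, adjusted p = 1). It was 0.20 without vehicle 7 h replicate 1 and 0.80 without vehicle 7 h replicate 2. At 25 h it was 0.19 ± 0.18 (limma adjusted p = 0.979). Averaged over both times it was 0.35 ± 0.13 (limma unadjusted p = 0.0249, adjusted p = 0.999), and between 0.20 and 0.49 when each array was left out in turn. In that average 0 members and 0% of all genes passed an adjusted p of 0.05 in limma, and 1 member and 3.77% of all genes an unadjusted p of 0.05. Taken as means over both times, mepenzolate and vehicle arrays overlapped, since the lowest mepenzolate array, 9.53 at 25 h, lay below the highest vehicle array, 9.56 at 7 h.

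The dual oxidases were dim, and at 7 h the arrays of a group lay further apart than the treatment means. Duox1 measured 5.91 and 6.0003 in mepenzolate lungs at 25 h, against 6.03 and 6.04 in vehicle lungs. At 7 h it measured 5.76 and 6.12 in mepenzolate lungs, against 5.61 and 6.22 in vehicle lungs. The 25 h values of mepenzolate were lower without overlap (-0.078 ± 0.19), as were those of 22.4% of all genes. The 7 h values overlapped (0.024 ± 0.19). Duox2 measured 5.81 and 5.86 in mepenzolate lungs at 25 h, against 5.90 and 5.87 in vehicle lungs. Values at 7 h were 5.68 and 5.94 in mepenzolate lungs, against 5.81 and 5.73 in vehicle lungs. Here too the 25 h values of mepenzolate were lower without overlap, beside the same 22.4% of all genes. After quantile normalization they overlapped, at 5.86 and 5.82 in mepenzolate lungs and 5.88 and 5.84 in vehicle lungs. The deposited Duox2 differences of -0.048 ± 0.10 at 25 h and 0.038 ± 0.10 at 7 h have no adjusted p, since the gene was below the filter.

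Noxo1 varied least of the 9 members, with an SD of 0.061 over the 8 arrays. It measured 7.27 and 7.36 in mepenzolate lungs at 25 h, against 7.39 and 7.33 in vehicle lungs, which overlap. Its 7 h values were 7.34 and 7.25 in mepenzolate lungs, against 7.22 and 7.25 in vehicle lungs. The groups did not overlap at 7 h only by a margin past the second decimal. Among the 8 tested members, 2 (Nox4 and Noxo1) had both mepenzolate arrays above both vehicle arrays at 7 h, as had 8.26% of all genes.

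The 4 non-phagocyte members had a median difference of -0.045 at 25 h, with 1 above 0, and of 0.048 at 7 h, with 4 above 0. Set beside the phagocyte medians of -0.12 and 0.033, the classes lay on the same side of 0 at each time, and the one member that stood on the other side of its class at 25 h was Nox4.

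**Figure D2:**
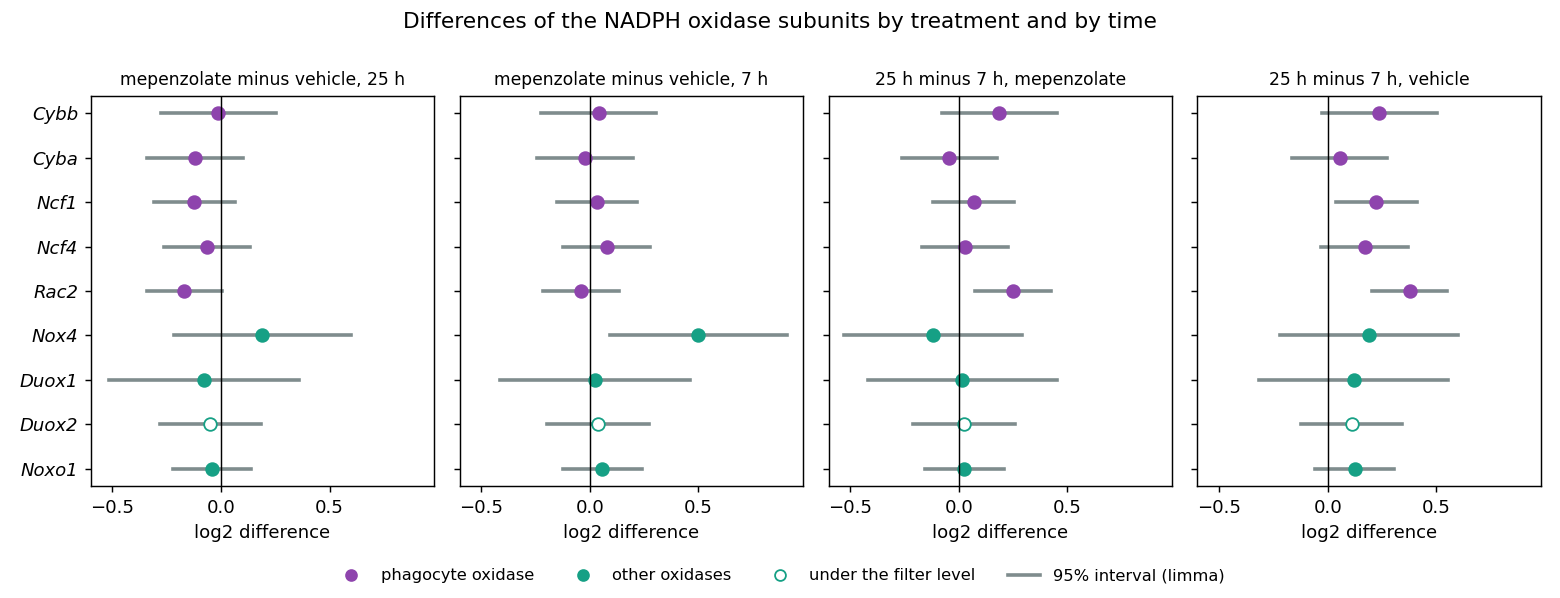
Log2 differences (horizontal axis) of the 9 subunits with 95% intervals from limma, for mepenzolate minus vehicle at each time and 25 h minus 7 h in each treatment; purple marks the phagocyte oxidase, green the other oxidases and an open circle Duox2, which was not tested. Intervals that leave out 0 are those of Nox4 at 7 h, of Rac2 by time in both treatments and of Ncf1 by time in vehicle lungs, and none of these passed the adjusted threshold.

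The treatment difference at 25 h minus that at 7 h was below 0 for 9 of 9 members, as for 51.7% of all genes. It ranged from -0.31 ± 0.25 for Nox4 to -0.052 ± 0.16 for Cybb, with medians of -0.13 for the phagocyte members and -0.10 for the others, beside -0.0058 over all genes tested. The common sign came with wide intervals. That of Ncf1, for instance, was -0.42 to 0.11 around -0.16. In limma 0 members and 0% of all genes passed an adjusted p of 0.05, and 0 members and 2.68% of all genes an unadjusted p of 0.05. The count of 9 also depended on single arrays: Cybb was at 0.13 without mepenzolate 7 h replicate 1, Cyba at 0.0089 without mepenzolate 25 h replicate 2 and Duox1 at 0.20 without vehicle 7 h replicate 1.

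In vehicle lungs the phagocyte subunits were higher at 25 h than at 7 h, with a median of 0.23 for the 5 members, beside -0.00023 over all genes tested. All 5 were above 0, as were 49.9% of all genes, and 4 of 5 (Cybb, Ncf1, Ncf4 and Rac2) had both 25 h arrays above both 7 h arrays, as had 20.9% of all genes. The differences were 0.24 ± 0.12 for Cybb, 0.23 ± 0.081 for Ncf1, 0.17 ± 0.087 for Ncf4 and 0.055 ± 0.096 for Cyba. Rac2, at 0.38 ± 0.076 (1.30-fold, interval 0.20 to 0.55), had a limma unadjusted p of 0.00103 and an adjusted p of 0.257. In that comparison 0 members and 0.0869% of all genes passed an adjusted p of 0.05, and 2 members (Rac2 and Ncf1) and 5.74% of all genes an unadjusted p of 0.05.

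In mepenzolate lungs the same comparison gave smaller values. The phagocyte median was 0.069, with 4 of 5 members above 0, and Rac2 was at 0.25 ± 0.076 (limma adjusted p = 0.557) as the 1 member whose 25 h arrays lay wholly above its 7 h arrays, as did those of 12.5% of all genes. Cybb was at 0.19 ± 0.12, Ncf1 at 0.069 ± 0.081, Ncf4 at 0.030 ± 0.087 and Cyba at -0.043 ± 0.096. Without mepenzolate 7 h replicate 2 the median was 0.0033, the value of Cybb in that fit, and without mepenzolate 25 h replicate 2 it was 0.13. In limma 0 members and 0.0268% of all genes passed an adjusted p of 0.05, and 1 member (Rac2) and 6.37% of all genes an unadjusted p of 0.05. The difference between these time courses is the same quantity as the difference between treatment effects given above, and no member passed it.

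Averaged over both treatments, a comparison added after the values were seen, Rac2 was higher at 25 h by 0.31 ± 0.053 (1.24-fold, interval 0.19 to 0.44). Its 4 arrays at 25 h ran from 9.59 to 9.82 and its 4 arrays at 7 h from 9.34 to 9.40. It was the 1 member of 9 with all 25 h arrays above all 7 h arrays, as were 2.55% of all genes. Its limma adjusted p was 0.0865 (unadjusted 0.000359). The adjusted p was 0.0387 with a stricter filter on dim genes and 0.0262 with an intensity trend and robust variances, and it lay from 0.0621 to 0.145 under the other settings with all arrays. Cybb followed with 0.21 ± 0.081 (limma adjusted p = 0.47) and Ncf1 with 0.15 ± 0.057 (limma adjusted p = 0.474). All 5 phagocyte members and all 4 others were above 0, as were 50.7% of all genes, with medians of 0.15 and 0.067. In limma 0 members and 0.221% of all genes passed an adjusted p of 0.05, and 3 members (Cybb, Ncf1 and Rac2) and 8.97% of all genes an unadjusted p of 0.05.

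Leukocyte marker values also differed between the times, and their part in the values of Rac2 and Cybb was not tested. Over both treatments B cell markers were above 0 in 5 of 5 cases (median 0.56), T and NK cell markers in 7 of 8 (median 0.18), dendritic cell markers in 7 of 7 (median 0.11), neutrophil markers in 7 of 10 (median 0.082), and monocyte and interstitial macrophage markers in 8 of 12 (median 0.11). Alveolar macrophage markers were above 0 in 7 of 11 cases (median 0.051) and platelet markers in 5 of 5 (median 0.30). None of these markers passed an adjusted p of 0.05. Of the neutrophil markers 4 of 10 were above 0 in mepenzolate lungs (median -0.015), against 9 of 10 in vehicle lungs (median 0.25). Averaged and set against the mean of the 8 arrays, they overlapped between the times in each treatment. In vehicle lungs they stood at 0.012 to 0.23 at 25 h, against -0.22 to 0.026 at 7 h. In mepenzolate lungs they stood at -0.054 to 0.044 at 25 h, against -0.065 to 0.032 at 7 h. The phagocyte members had medians of 0.069 in mepenzolate lungs and 0.23 in vehicle lungs. Alveolar macrophage markers had medians of 0.11 in mepenzolate lungs and -0.019 in vehicle lungs. Among lymphocyte genes Cd79a, a B cell receptor subunit, was at 0.68 ± 0.19 (limma adjusted p = 0.267) and Cd3g, part of the CD3 complex on T cells, at 0.41 ± 0.073 (limma adjusted p = 0.0964). B cell markers, averaged and set against the mean of the 8 arrays, stood at 0.21 to 0.44 in mepenzolate lungs at 25 h, against -0.36 to -0.26 at 7 h. In vehicle lungs they spread widely within a group, from -0.15 to 0.64 at 25 h, against -0.48 to -0.038 at 7 h.

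**Figure D3:**
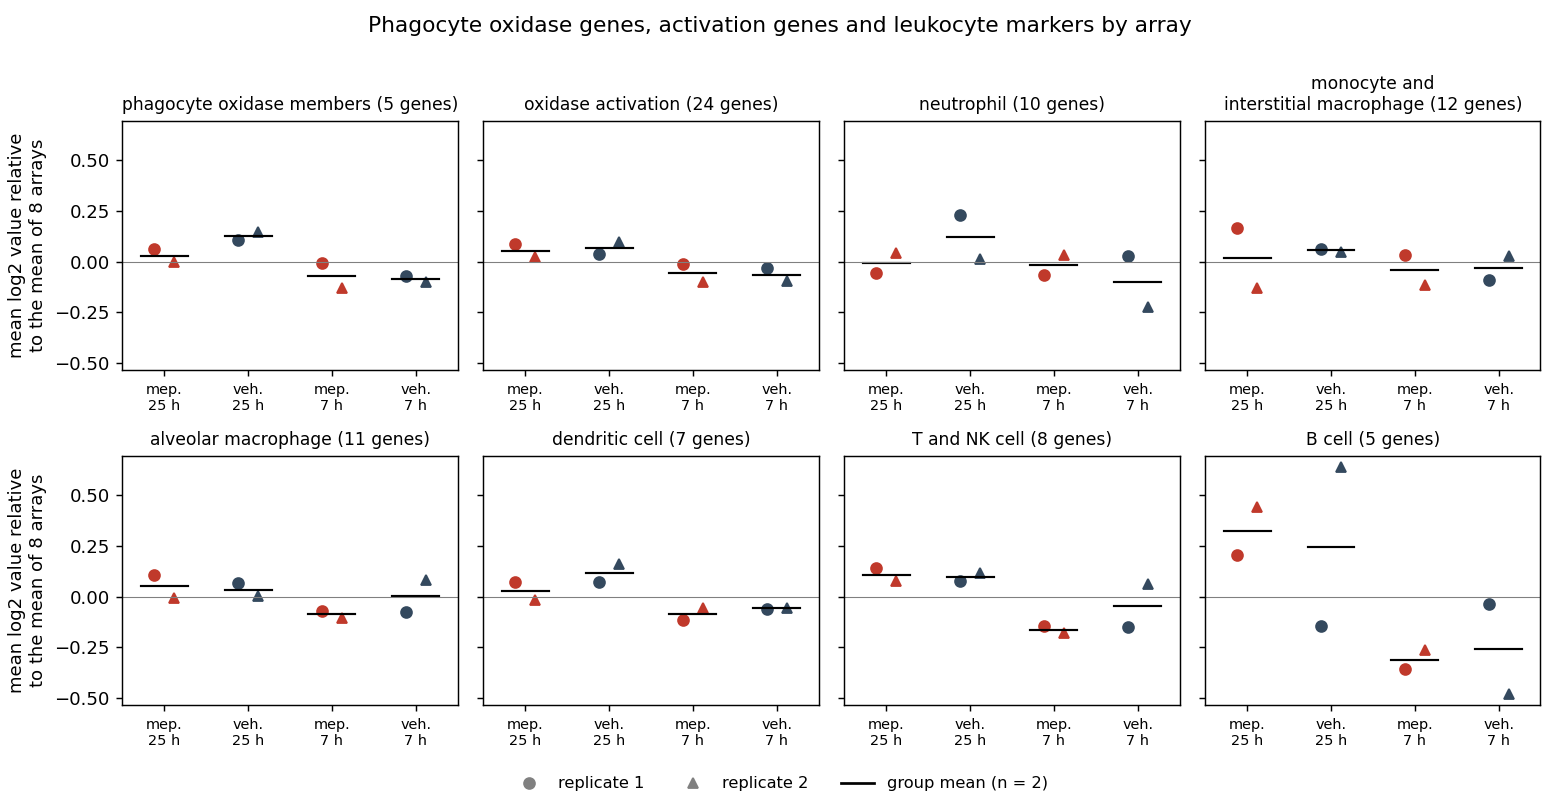
Mean log2 value of a gene list on each array, relative to its mean over the 8 arrays (vertical axis), by treatment and time, with circles for replicate 1, triangles for replicate 2 and a line at each group mean. The 5 phagocyte oxidase genes stand at -0.0036 to 0.062 in mepenzolate and 0.11 to 0.15 in vehicle lungs at 25 h. At 7 h they stand at -0.13 to -0.0090 and -0.10 to -0.071. Both 25 h arrays lie above both 7 h arrays in each treatment for these genes and the oxidase activation, dendritic, and T and NK lists.

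Genes linked to activation of the phagocyte oxidase were read from a list of 27, of which 24 were measured and tested. The list holds receptors, kinases and exchange factors along with other regulators, among them an inhibitor of small GTPases. Over both treatments 20 of 24 were above 0 at 25 h relative to 7 h, as were 50.7% of all genes, and 7 had all 25 h arrays above all 7 h arrays, as had 2.55% of all genes. In limma 0 of the 24 and 0.221% of all genes passed an adjusted p of 0.05, and 12 of the 24 and 8.97% of all genes an unadjusted p of 0.05. The median of the list was 0.12, beside 0.0014 over all genes tested. B cell markers (median 0.56) and T and NK cell markers (median 0.18) were also higher, and their part in the list was not tested. The next values are given for genes chosen after they were seen. Dock2, the exchange factor that loads Rac in leukocytes, was at 0.41 ± 0.063 (limma adjusted p = 0.0646). Coro1a, an actin regulator of leukocytes that binds the p40phox protein, was at 0.35 ± 0.062 (limma adjusted p = 0.0964), and Hvcn1, the proton channel that balances the charge moved by the oxidase, at 0.28 ± 0.074 (limma adjusted p = 0.235). Prkca, a protein kinase C, went the other way at -0.44 ± 0.11 (limma adjusted p = 0.184).

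By treatment the activation list stayed near 0, with medians of 0.020 at 25 h and 0.0046 at 7 h. At 25 h the genes named by their moderated t were C5ar1, the receptor for complement C5a, and Prkca. C5ar1 measured 7.25 and 7.04 in mepenzolate lungs, against 7.38 and 7.36 in vehicle lungs, a difference of -0.22 ± 0.089 (limma adjusted p = 0.979), and Prkca was at -0.27 ± 0.15. At 7 h they were Arhgdib, a leukocyte inhibitor of small GTPases, at 0.19 ± 0.11 and Vav2, a Rac exchange factor, at -0.11 ± 0.091. Neither passed the test.

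Enzymes that use or remove the oxidants had medians of 0.022 at 25 h and -0.0028 at 7 h over 18 tested genes, and 0 passed in limma at either time. Prdx1, a cytosolic peroxiredoxin, had the largest value. It measured 11.36 and 11.56 in mepenzolate lungs at 25 h, against 11.10 and 11.05 in vehicle lungs, a difference of 0.38 ± 0.089 (limma unadjusted p = 0.00258, adjusted p = 0.979). Txnrd1, the thioredoxin reductase that regenerates the donor of peroxiredoxins, was at 0.19 ± 0.11 at 25 h. At 7 h Lpo, the lactoperoxidase that takes peroxide from the dual oxidases, was at 0.17 ± 0.097 and Glrx, a glutaredoxin, at 0.14 ± 0.097 (limma adjusted p = 1 for each).

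Cytokines and transcription factors known to induce oxidase genes were below 0 in 8 of 12 cases at 25 h (median -0.090) and in 6 of 12 at 7 h (median 0.0018), with 0 passing in limma. Smad3, which carries the transforming growth factor beta signal, measured 8.97 and 8.82 in mepenzolate lungs at 25 h, against 9.18 and 9.09 in vehicle lungs (-0.25 ± 0.091, limma adjusted p = 0.979). Tgfb1, that growth factor itself, was at -0.15 ± 0.098 at 25 h with overlapping arrays. Nox4 was at 0.19 in the same arrays, as given above. Il1b, interleukin 1 beta, measured 8.33 and 8.19 in mepenzolate lungs at 7 h, against 8.18 and 7.58 in vehicle lungs, where replicate 2 was the low array (0.38 ± 0.21, limma adjusted p = 1). Cebpb, a myeloid transcription factor, was at -0.12 ± 0.089 at 7 h.

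Further components of the complexes were measured for 8 of 9 listed genes. None of the 8 passed the test in limma, and 6 were above the filter. Nox1, the colon-type catalytic subunit served by Noxo1, measured 6.37 and 6.55 in mepenzolate lungs at 25 h, against 6.04 and 6.30 in vehicle lungs (0.29 ± 0.22, limma adjusted p = 0.979). Its arrays overlapped at 7 h, where mepenzolate lungs had 6.63 and 6.15 and vehicle lungs 6.79 and 6.16. Its activator Noxa1 was at -0.068 ± 0.10 at 25 h and 0.22 ± 0.10 at 7 h. Rac1, the Rac protein found in most cells, had an SD of 0.034 over the 8 arrays and was at -0.0061 ± 0.053 between the times over both treatments. Rac2, the blood cell form, was at 0.31 in the same comparison, and the difference between these genes was not tested. Cybc1, which helps the membrane pair mature, was at 0.064 ± 0.11 at 25 h and -0.043 ± 0.11 at 7 h, and Rap1a, a GTPase that copurifies with the membrane pair, at 0.12 ± 0.089 and 0.069 ± 0.089. Nox3, an oxidase of the inner ear, averaged 5.02 and was below the filter.

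The dual oxidases and their maturation factors are neighbours on mouse chromosome 2 in the RefSeq order Duox2, Duoxa2, Duoxa1 and Duox1. Duox1 and Duoxa1, which stand side by side, differed in the same direction between the numbered arrays of every group, by unlike amounts. Duoxa1 measured 6.12 and 6.59 in mepenzolate lungs at 25 h, against 6.35 and 6.42 in vehicle lungs. At 7 h it measured 6.18 and 6.53 in mepenzolate lungs, against 6.23 and 6.58 in vehicle lungs. In all 4 groups the array numbered 2 was the higher one for both genes, by 0.018 to 0.60 for Duox1 and 0.072 to 0.47 for Duoxa1. The gaps were 0.086 and 0.47 in mepenzolate lungs at 25 h, and 0.60 and 0.35 in vehicle lungs at 7 h. The array numbered 2 was higher in all 4 groups for 1143 of 14953 genes, 7.64%, and also for Cybc1. Cybb and Cyba were lower on it in all 4 groups, and no share of all genes is given for that direction. For Cybb the array numbered 2 differed by -0.37 in mepenzolate lungs at 7 h and by -0.0225 to -0.007 in the other groups. With quantile normalization Cybb was higher on the array numbered 2 in mepenzolate lungs at 25 h (10.73, against 10.71). Array medians were lower on the array numbered 1 in each group, by least in vehicle lungs at 25 h. After quantile normalization the SD over 8 arrays was 0.17 for Duox1, against 0.20 as deposited, and 0.15 for Duoxa1, against 0.18. The part of the array medians in these values was not tested.

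**Figure D4:**
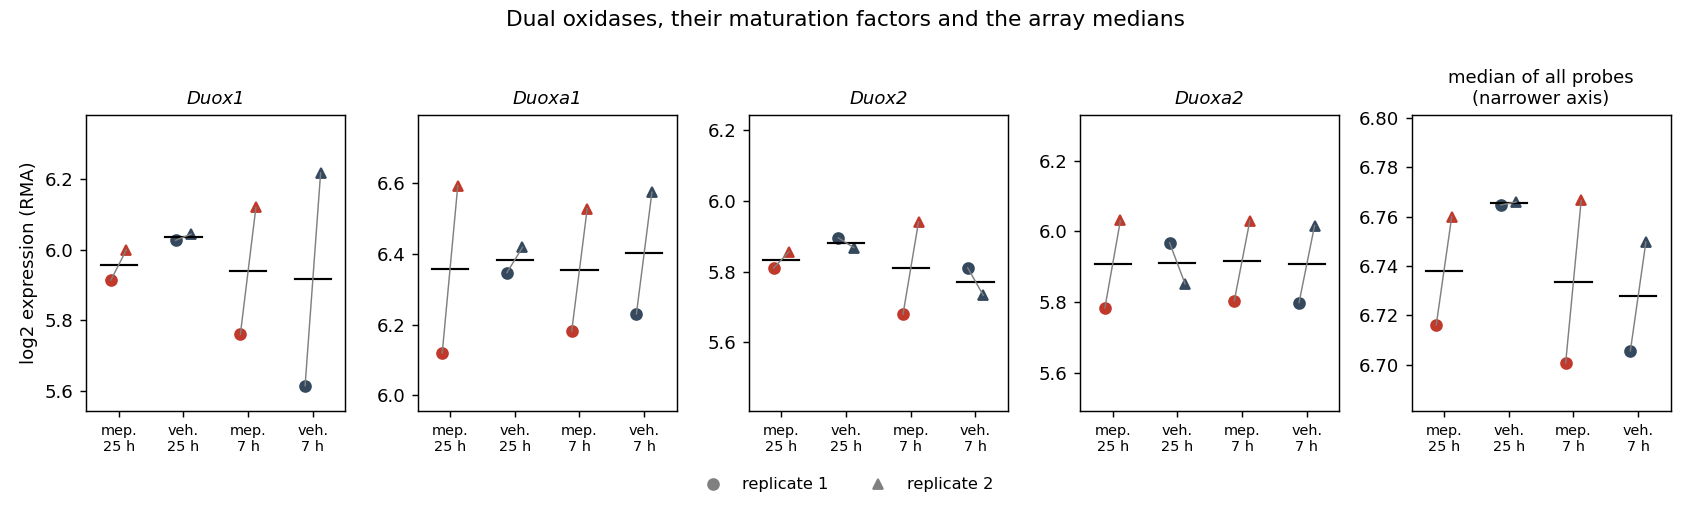
Log2 expression (RMA, vertical axis) of the dual oxidases and their maturation factors on each array by treatment and time, with a grey line joining the arrays of a group and a black line at the group mean; the last panel gives the median of all probes on a narrower axis. Duox1 and Duoxa1 are higher on the array numbered 2 in all 4 groups, whereas Duox2 and Duoxa2 are not in every group.

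Of the members, 4 varied most over the arrays (SD at or above 0.14, the 75th percentile of genes tested). For each, the 3 genes of most similar profile were found by the root mean square difference of centred log2 values over 8 arrays. These genes were picked for likeness on the same arrays, so a pattern shared with the member follows largely from the choice. Rac2 was nearest to Micall2 (0.030), Cd48 (0.052), a surface protein of leukocytes, and Il17ra (0.062), the interleukin 17 receptor chain. Cd48 measured 8.26 and 8.32 in mepenzolate lungs at 25 h, against 8.27 and 8.43 in vehicle lungs. Its values at 7 h were 7.995 and 7.90 in mepenzolate lungs and 8.04 and 7.98 in vehicle lungs, so that its 25 h arrays also lay above its 7 h arrays. Cybb was nearest to Wsb1 (0.043), Prr13 (0.044) and H2bc8 (0.049), and Wsb1 and Prr13 shared with it the low value in mepenzolate 7 h replicate 2, at 9.02 and 8.43.

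For Nox4 the nearest genes were Cntn1 (0.13), Cog5 (0.15) and Rnf225 (0.15), beside an SD of 0.27 for Nox4 itself. Cntn1 and Cog5 shared its low value in vehicle 7 h replicate 1, at 5.92 and 7.93. Rnf225 measured 7.05 and 7.03 in mepenzolate lungs at 25 h, against 6.67 and 6.77 in vehicle lungs. Its 7 h values were 7.17 and 7.11 in mepenzolate lungs, against 6.53 and 6.67 in vehicle lungs. Picked for its likeness to Nox4, it had both mepenzolate arrays above both vehicle arrays at each time, as Nox4 had in the deposited values. Duox1 was nearest to Dbx1 (0.048), Alx4 (0.049) and C2cd4b (0.049).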

How the data were processed

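Total RNA of mouse lung was measured on Affymetrix gene arrays, 2 per group and 8 in all. The values deposited by the authors are log2 expression levels of 34760 probe sets made with RMA, per the submitters' processing notes; no version is given in the sources used here. The method corrects background, makes the intensity distributions of the arrays alike and summarises probes, and differences of dim genes come out compressed. The number of arrays limits the precision. GEO's platform annotation gave 1 symbol to 21640 probe sets and several to 1321, and 11799 are unnamed here. By Entrez identifier 21553 matched RefSeq of GRCm38.p6, and 0 symbols changed.

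The 14953 of 19937 genes whose mean reached the 25th percentile entered a group-means model in limma 3.58.1 (R 4.3.3), with 1 spread shared by all 8 arrays (4 residual and 4.09 prior degrees of freedom), and Benjamini-Hochberg adjustment at 0.05. Input used the R package data.table at version 1.17.8, and plots were drawn with matplotlib 3.10.9 in Python 3.11.15. The 25 h comparison was tested on simulated data of 14953 genes with 50 changed at each size. There 60% of changes of log2 0.5 and 100% of those of 1, 2 or 3 were recovered, and 19 of 199 calls were false. All sizes shared 1 adjustment, in which the larger changes ease the threshold for those of 0.5. The real 25 h comparison called 0 genes (lowest limma adjusted p 0.979), so the 60% cannot be carried over to the members.

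The members, lists and tests were chosen with earlier results of these data known, and the comparison of times over both treatments was added after the values were seen. All members were named. Named pathway genes were those that passed or, per list and treatment comparison, the 2 with the largest moderated t. Outside this rule, the values by time of Dock2, Coro1a, Hvcn1 and Prkca were chosen after they were seen. Further components were all named, and genes of most similar profile by root mean square difference. Same-numbered arrays did not deviate together in every pair of groups (r = -0.021 to 0.40), so the numbers were not taken to pair arrays. Alternatives were quantile normalization, median centring, a filter at the 50th percentile or none, a block for the replicate number, trend and robust variances, weights for arrays, probe sets averaged per gene, fits on the compared groups alone, and each array left out in turn. Start regions came from RefSeq; Ncf4 and Rac2 were not in that table.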

Additional observations from a re-analysis of the deposited data

Results flagged for a closer look

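Among the components and pathway genes named, 2 had treatment differences of opposite direction at the 2 times. As deposited, all their mepenzolate arrays lay below the vehicle arrays at 25 h and above them at 7 h. The first held for 22.4% of all genes and the second for 8.26%, and no share is given for both together. Noxa1, the activator of Nox1, measured 6.02 and 6.06 in mepenzolate lungs at 25 h, against 6.15 and 6.07 in vehicle lungs. At 7 h it measured 6.11 and 6.16 in mepenzolate lungs, against 5.78 and 6.05 in vehicle lungs. The difference at 25 h minus that at 7 h was -0.28 ± 0.14 (limma unadjusted p = 0.0792, adjusted p = 1). After quantile normalization the 25 h arrays of Noxa1 overlapped, at 6.06 and 6.03 in mepenzolate lungs and 6.13 and 6.05 in vehicle lungs.

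C5ar1, the complement C5a receptor that primes phagocytes, measured 7.25 and 7.04 in mepenzolate lungs at 25 h, against 7.38 and 7.36 in vehicle lungs. At 7 h it measured 7.31 and 7.33 in mepenzolate lungs, against 7.28 and 7.22 in vehicle lungs. The difference at 25 h minus that at 7 h was -0.30 ± 0.13 (limma unadjusted p = 0.0443, adjusted p = 1). C5ar1 had been named for its 25 h difference, which also enters this value. Neither difference between times passed the test. Groups of 2 arrays are too small for a check of single outlying arrays.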

How the results depend on the processing

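With all arrays, 473 alternative values of single members gave 2 changes of sign and 2 values past the threshold, those of Rac2 by time over both treatments. The sign changes came with median centring: Cybb at 25 h was 0.016, and Cyba by time over both treatments -0.015. For that contrast 1 member passed with a stricter filter and 1 with trend and robust variances, against 0, and genes past the threshold were 73 with a replicate block, 72 with a stricter filter and 123 with trend and robust variances, against 33. By time in mepenzolate lungs they were 9 with the replicate block, 1 without a filter, 1 in a fit on these groups alone, and 0 with quantile normalization or array weights, against 4. By time in vehicle lungs they were 7 with quantile normalization, 33 with trend and robust variances and 55 with array weights, against 13. At 25 h by treatment the replicate block gave 1, against 0, and it changed no call of a member. The causes were not tested. The filters and the variance model do not enter the class medians.

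When each array was left out in turn, with the spread of its remaining partner taken from the other groups, no member passed (lowest adjusted p 0.122), and 39 of 448 values changed sign. Genes past the threshold ranged from 0 to 1 at 25 h, 0 to 2 at 7 h, 0 to 2 over both times, 0 to 2 for the difference of effects, 0 to 2 by time in mepenzolate lungs, 0 to 14 in vehicle lungs and 11 to 34 over both treatments. The phagocyte median ranged from -0.16 to -0.063 at 25 h, from -0.046 to 0.048 at 7 h, from -0.17 to -0.076 for the difference of effects and from 0.0033 to 0.13 by time in mepenzolate lungs. The median of the others ranged from 0.0052 to 0.20 at 7 h, from -0.26 to -0.049 for the difference of effects, from -0.086 to 0.067 by time in mepenzolate lungs and from 0.0021 to 0.28 in vehicle lungs.

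Members with a change of sign ranged as follows. At 25 h Ncf4 ran from -0.13 to 0.00072 and Noxo1 from -0.084 to 0.0018. At 7 h Cybb ran from -0.14 to 0.22, Cyba from -0.075 to 0.032, Ncf1 from -0.014 to 0.080 and Duox1 from -0.28 to 0.33. Over both times Cybb ran from -0.077 to 0.11, Ncf4 from -0.026 to 0.039, Duox1 from -0.18 to 0.12 and Noxo1 from -0.015 to 0.031. For the difference of effects Cybb ran from -0.23 to 0.13, Cyba from -0.21 to 0.0089 and Duox1 from -0.40 to 0.20. By time in mepenzolate lungs Cyba ran from -0.15 to 0.064, Ncf4 from -0.022 to 0.081, Nox4 from -0.24 to 0.00039, Duox1 from -0.16 to 0.20 and Noxo1 from -0.020 to 0.071. By time in vehicle lungs Nox4 ran from -0.11 to 0.49 and Duox1 from -0.18 to 0.42. By time over both treatments Cyba ran from -0.048 to 0.060, Nox4 from -0.11 to 0.19 and Duox1 from -0.082 to 0.22.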
